A study of Mus musculus with 7 samples.

Results

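The distal end of the mouse IFI200 gene cluster on chromosome 1 holds 6 protein-coding family genes, which lie on the minus strand in the order Ifi204, Mndal, Ifi211, Ifi203, Ifi202b and Ifi205. The rule that chose them uses position and no measured value, and takes the coding IFI200 genes between the start of Ifi204 (173747293, GRCm38, GENCODE M21) and the end of Ifi205 (174031810), and they are 6 of the 35498 genes in the files. Expression was measured by strand-specific mRNA sequencing of whole bone marrow from female mice aged 5 to 6 months. The libraries were 3 from mice labelled Aim2 knock out (KO) and 4 from wild type mice (WT), and the labels name no strain, litter or deleted exon for either genotype. Whether separate mice gave the libraries is not stated in the labels, and the p-values describe only how these libraries vary.

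IFI200 proteins, also called PYHIN proteins, are interferon-inducible proteins that bind DNA through HIN domains. Most also carry a pyrin domain, through which some recruit partners such as the inflammasome adaptor ASC. AIM2, encoded at the other end of the same cluster, is the DNA sensor that assembles an inflammasome with ASC. The product of Ifi202b, p202, has HIN domains and no pyrin domain, binds DNA in the cytosol and opposes AIM2 in mouse cells. Ifi202b has been linked to lupus susceptibility in mice, and its expression is known to differ between inbred strains and to be low in C57BL/6. The genome used for the annotation is that of C57BL/6J.

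The libraries held 20300468 to 21099972 estimated reads. Aim2 had 157, 47 and 59 reads in the KO libraries, against 601, 573, 535 and 533 in the WT libraries, so the targeted gene was lower in each library labelled KO and KO library 1 held the most of the 3. Reads of haemoglobin genes made up 11.3 to 13.7% of KO libraries and 13.8 to 19.9% of WT libraries, and WT library 1 held the most. The tissue label was met by marrow markers, with 8 neutrophil markers at 21230 to 22980 CPM in KO and 16600 to 21300 CPM in WT, and 8 erythroid markers at 111400 to 144900 CPM in KO and 141500 to 225000 CPM in WT, where CPM are reads scaled to a common library size. Over the whole table, the quasi-likelihood test of edgeR, with Benjamini-Hochberg adjustment, called 92 of 14238 genes (0.646%) at an adjusted p under 0.05, of which 68 were higher in KO (0.478%) and 24 were lower (0.169%).

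Sequence upstream of the genes shows what the promoters share. RefSeq promoter entries (GRCm38.p6) were found for 5 of the 6 genes, giving 7 windows of 250 bases before an annotated start. Ifi204 had no entry and was not searched. The windows were searched on both strands for the core of the interferon-stimulated response element, GAAA and GAAA with any 2 bases between them, the kind of site bound by IRF9-containing complexes and by other IRF proteins. It was present in 5 windows of 4 genes, against 978 of 32851 promoter windows of all genes (2.98%). The 2 windows of Mndal overlap each other, as do the 2 of Ifi203, so the 7 are not separate stretches. Around the match, 30 bases are given 5′ to 3′ on the gene's strand to show how nearly alike the stretches are, with the element in capitals.
Mndal, chr1:173880204-173880233: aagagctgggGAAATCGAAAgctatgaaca
Ifi203, chr1:173942508-173942537: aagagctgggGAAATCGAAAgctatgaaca
Ifi211, chr1:173913064-173913093: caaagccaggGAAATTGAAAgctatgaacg
Ifi205, chr1:174031870-174031899: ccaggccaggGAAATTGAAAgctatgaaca
The stretches of Mndal and Ifi203 were the same in every base. Those windows, which start at 173880188 for Mndal and 173942493 for Ifi203, were identical at 233 of 261 aligned positions (89.3%). The other window of Ifi203 held no such element, and the other window of Mndal held one on the opposite strand. The Mndal windows precede starts at 173880187 and 173879958. Mndal-201, the annotated transcript with most of the reads of Mndal, starts elsewhere, at 173942491. That start lies beside the Ifi203 window that begins at 173942493.

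The Ifi202b window held none of these elements. It precedes a start at 173982844, while the annotated transcript Ifi202b-201 starts at 173982744, and the bases between were not searched. The window held the core of the gamma-activated site, TTCNNNGAA, a kind of site known from the response to interferon gamma. This core occurred in 2306 of 32851 windows (7.02%) and in no other of the 7 windows searched here. The windows of Ifi202b and Ifi211, the genes with the largest increase and the one decrease in KO, are given in full, 250 bases on the minus strand of GRCm38.p6, with the matched elements in capitals. A match or its lack describes these letters only.
Ifi202b, chr1:173982845-173983094: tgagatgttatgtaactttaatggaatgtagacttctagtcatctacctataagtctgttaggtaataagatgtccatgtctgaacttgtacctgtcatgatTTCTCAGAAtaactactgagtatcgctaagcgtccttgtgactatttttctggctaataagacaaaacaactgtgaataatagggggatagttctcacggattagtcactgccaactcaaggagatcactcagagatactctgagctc
Ifi211, chr1:173913047-173913296: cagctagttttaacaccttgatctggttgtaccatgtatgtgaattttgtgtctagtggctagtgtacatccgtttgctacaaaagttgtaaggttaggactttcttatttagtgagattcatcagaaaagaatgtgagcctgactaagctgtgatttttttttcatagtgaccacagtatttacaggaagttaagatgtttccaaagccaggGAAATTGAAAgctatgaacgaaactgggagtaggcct

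Ifi202b was near absent in WT marrow and well expressed in KO marrow, and of the 14238 genes tested it had the smallest p. Ifi205 rose and Ifi211 fell in KO, while Ifi204, Mndal and Ifi203 did not pass the test. That is 2 members higher and 1 lower of 6, against 0.478% and 0.169% of all genes. With any 1 library left out, 1 or 2 members were called. The KO and WT libraries did not overlap in CPM for 5 of the 6 members, 4 of which were higher in KO and 1 lower, while 12.9% of all tested genes had no overlap. The median log2 fold change of the 6 was 0.51, and that of all tested genes was -0.01.

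**Figure D1:**
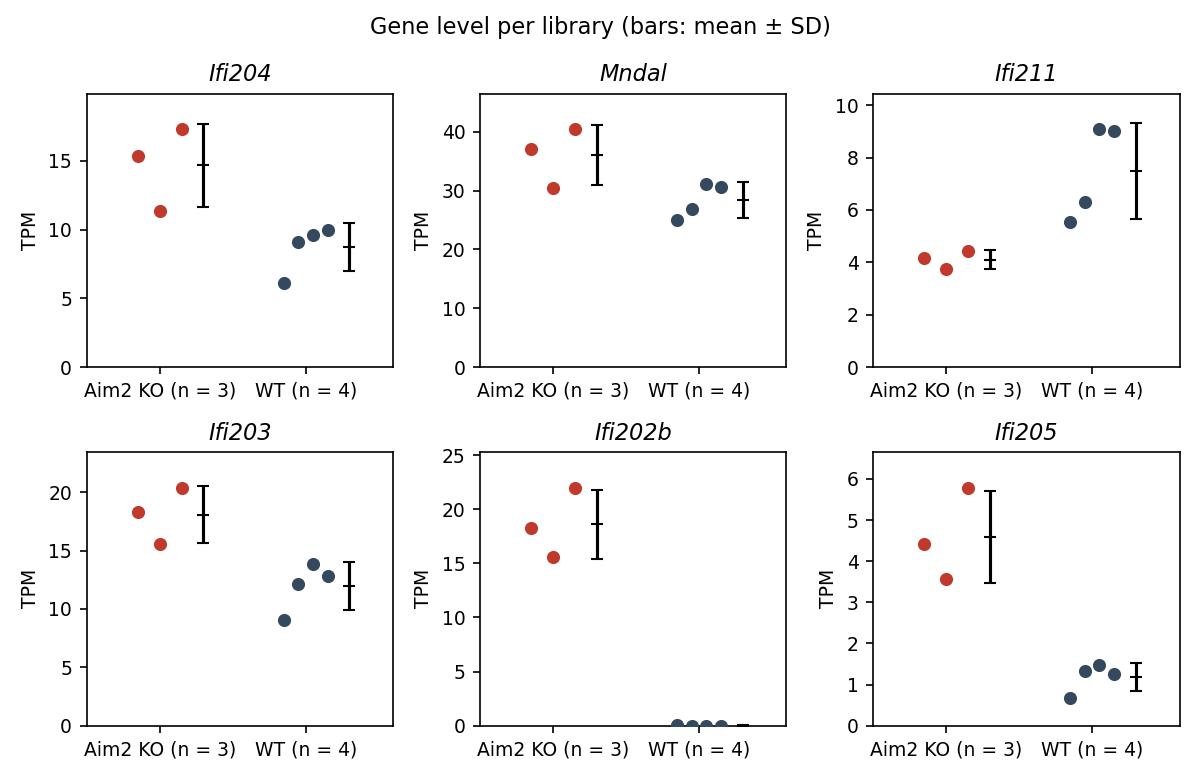
Level of each of the 6 genes in TPM (vertical axes, starting at 0, each with its own scale), with 3 Aim2 KO libraries left and 4 WT libraries right in each panel; points are libraries and bars are mean ± SD. Ifi202b sits between 15.6 and 22.0 TPM in KO and at or near 0 in WT, Ifi211 is lower in each KO library, and Mndal is the one gene whose groups overlap.

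Ifi202b (ENSMUSG00000026535.9, chromosome 1, 173962568 to 173982744) has 1 annotated transcript. It had 505, 443 and 662 reads in the KO libraries, against 2, 0, 0 and 0 in the WT libraries. All 3 KO libraries were far above all 4 WT libraries, and WT library 1 held the only WT reads. In TPM, a level per length, the KO libraries had 18.2, 15.6 and 22.0 and WT library 1 had 0.056, with 0 listed in the other 3.

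Summed over libraries, Ifi202b had 1610 reads in KO and 2 in WT, a ratio per scaled read of 1013 with an exact 95% interval of 280 to 8373 that covers counting error only. The fitted log2 fold change was 9.66 ± 0.43 (SE, adjusted p = 1.44e-04, edgeR quasi-likelihood, Benjamini-Hochberg), and its size depends on the prior count used for genes near 0. Ifi202b was called under every alternative tried for the gene-level test and with each of the 7 libraries left out. Of its 31-base sequence words, 98.8% occurred in no other gene's transcripts, the highest share among the 6 members, and 0.0% occurred in the other 5.

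Ifi205 (ENSMUSG00000054203.7, 174011998 to 174031810) encodes p205, a protein tied to macrophage differentiation and to control of the ASC gene in mouse macrophages. It had 125, 105 and 177 reads in the KO libraries, against 24.1, 43.8, 44.6 and 41.3 in the WT libraries. The groups did not overlap, with KO library 3 highest and WT library 1 lowest. Its level was 6.31 ± 1.53 CPM in KO and 1.89 ± 0.41 CPM in WT (SD, n = 3 and 4). The log2 fold change was 1.73 ± 0.23 (SE, adjusted p = 0.0269, edgeR quasi-likelihood, Benjamini-Hochberg). With a library left out the value stayed between 1.52 and 1.87, and the adjusted p was under 0.05 only without KO library 3 (0.0482) or without WT library 1 (0.0373).

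Ifi211 (ENSMUSG00000026536.9, 173896345 to 173913046) was the one member lower in KO. It had 129, 122 and 145 reads in the KO libraries, against 211, 205, 286 and 306 in the WT libraries. The groups did not overlap, and the 3 KO libraries lay close together. Its level was 6.16 ± 0.36 CPM in KO and 12.4 ± 2.19 CPM in WT. On the log2 scale that is a difference of -1.01 ± 0.15 (SE; adjusted p = 0.0352, same test). That call was lost with any 1 library left out, where the value stayed between -1.11 and -0.93 and the adjusted p lay between 0.0515 and 0.156.

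Reads of Ifi211 and Ifi205 are hard to separate. Only 21.1% of the 31-base words of Ifi211 occurred in no other gene, 49.5% also occurred in Ifi205 and 38.6% in Ifi204, and conversely 20.5% of the words of Ifi205 occurred in Ifi211. The coding transcript Ifi205-201 took 88.9 to 91.0% of the reads of Ifi205 in KO and 73.2 to 91.6% in WT. Of the words of this transcript, 56.5% occurred in other genes, 54.1% in Ifi211. The share found in no other transcript was 4.3%, which also leaves out words shared only with the other transcript of Ifi205. Salmon, the program used by the submitters, divides reads that fit several transcripts by a model. The reads of Ifi205 and Ifi211 together came to 11.9, 10.9 and 14.6 CPM in the KO libraries, against 12.6, 12.1, 16.0 and 16.6 CPM in the WT libraries. Together the groups overlapped, while for each gene alone they did not. With Ifi204 added, the sum was 34.5 to 48.6 CPM in KO and 28.9 to 38.0 CPM in WT, and the groups again overlapped.

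**Figure D2:**
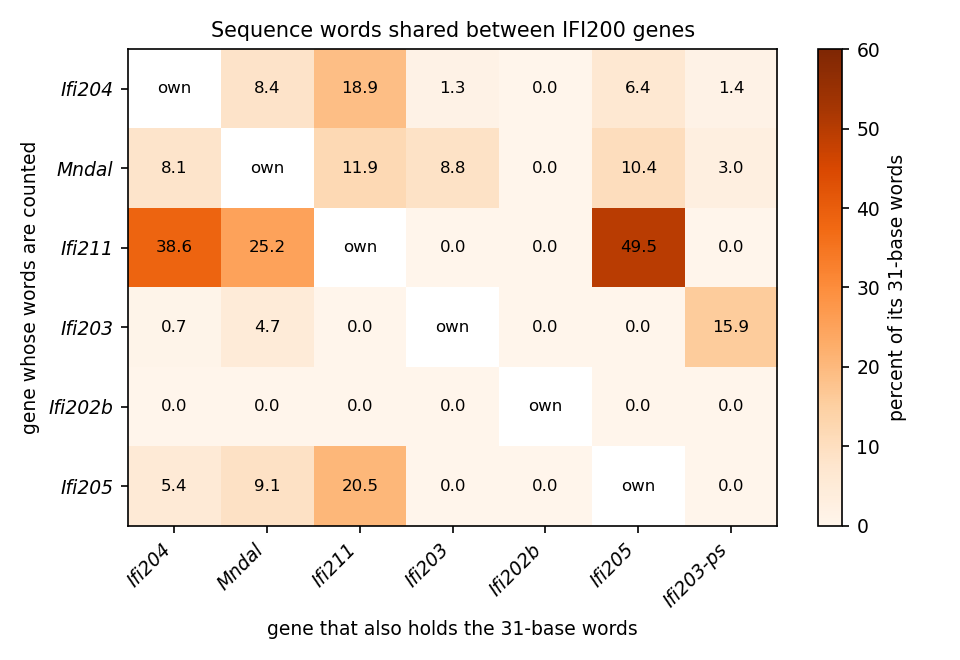
Percent of the 31-base words of each distal IFI200 gene (rows) that also occur in transcripts of another distal gene or of the pseudogene Ifi203-ps (columns), over all annotated transcripts. Ifi211 shares 49.5% of its words with Ifi205 and 38.6% with Ifi204, and Ifi202b shares 0.0% with each column.

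Ifi204 (ENSMUSG00000073489.6, 173747293 to 173766943) encodes p204, a relative of human IFI16 that takes part in STING-dependent responses to DNA and in differentiation of myeloid and muscle cells. It had 619.8, 491 and 752 reads in the KO libraries, against 304, 380.2, 394 and 446 in the WT libraries. Every KO library was above every WT library. Its level was 28.9 ± 5.22 CPM in KO and 18.8 ± 2.08 CPM in WT, and the log2 fold change of 0.62 ± 0.14 (SE) did not pass the test (adjusted p = 0.116, edgeR quasi-likelihood, Benjamini-Hochberg). DESeq2 gave the same size and an adjusted p of 0.00447.

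Ifi203 (ENSMUSG00000039997.16, 173920407 to 173942672), which encodes an interferon-inducible nuclear protein, had 1063, 966 and 1322 reads in the KO libraries, against 682, 792, 861 and 864 in the WT libraries. Again no KO library reached down to the WT range. The log2 difference of 0.40 ± 0.098 (SE) did not pass (adjusted p = 0.153, edgeR quasi-likelihood, Benjamini-Hochberg), while DESeq2 gave an adjusted p of 0.0252.

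Mndal (ENSMUSG00000090272.8, 173849126 to 173942491), named for its likeness to the human myeloid cell nuclear differentiation antigen, had 909, 852 and 1178 reads in the KO libraries, against 808, 721, 846 and 901 in the WT libraries. In CPM the KO libraries had 42.7, 40.9 and 53.3 and the WT libraries 43.3, 34.9, 41.0 and 43.1, so KO library 3 was highest and the other 2 lay within the WT range. The log2 fold change was 0.17 ± 0.11 (SE, adjusted p = 0.638, same test). It was the one member with an unadjusted p above 0.05, where 11.5% of all genes were under it.

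The order of the genes by level per length differed between the genotypes, mainly in the place of Ifi202b. In KO, Mndal had the highest mean TPM with 36.0 ± 5.07, followed by Ifi202b with 18.6 ± 3.22, Ifi203 with 18.1 ± 2.44 and Ifi204 with 14.7 ± 3.02. Ifi205 (4.59 ± 1.12) and Ifi211 (4.11 ± 0.35) came last, and the neighbours in this order from Ifi202b to Ifi204, and Ifi205 and Ifi211, lay within their SD of each other or close to it. In WT, Mndal (28.4 ± 2.99) was followed by Ifi203 (12.0 ± 2.04), Ifi204 (8.71 ± 1.75), Ifi211 (7.48 ± 1.84), Ifi205 (1.18 ± 0.35) and Ifi202b.

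The make-up of the distal genes also differed. Ifi202b was 18.7 to 19.9% of the summed TPM of the 6 genes in KO libraries and at most 0.121% in WT libraries. Ifi211 was 4.01 to 4.65% in KO and 11.3 to 14.2% in WT, and Mndal was 36.6 to 38.0% in KO and 47.8 to 53.7% in WT. The 6 shares of a library sum to 100%, so they are not independent of each other.

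The sum over the 6 genes was 157, 143 and 192 CPM in the KO libraries, against 109, 104, 118 and 122 CPM in the WT libraries, and the groups did not overlap. Without Ifi202b the sum was 121.8 to 161.7 CPM in KO and 103.8 to 122.4 CPM in WT, and the groups overlapped. The 8 other IFI200 genes in the files ran the other way, with 36.3 to 53.6 CPM in KO and 94.0 to 121 CPM in WT. Over all 14 genes the sums were 179 to 245 CPM in KO and 202 to 244 CPM in WT, so the family as a whole overlapped.

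**Figure D3:**
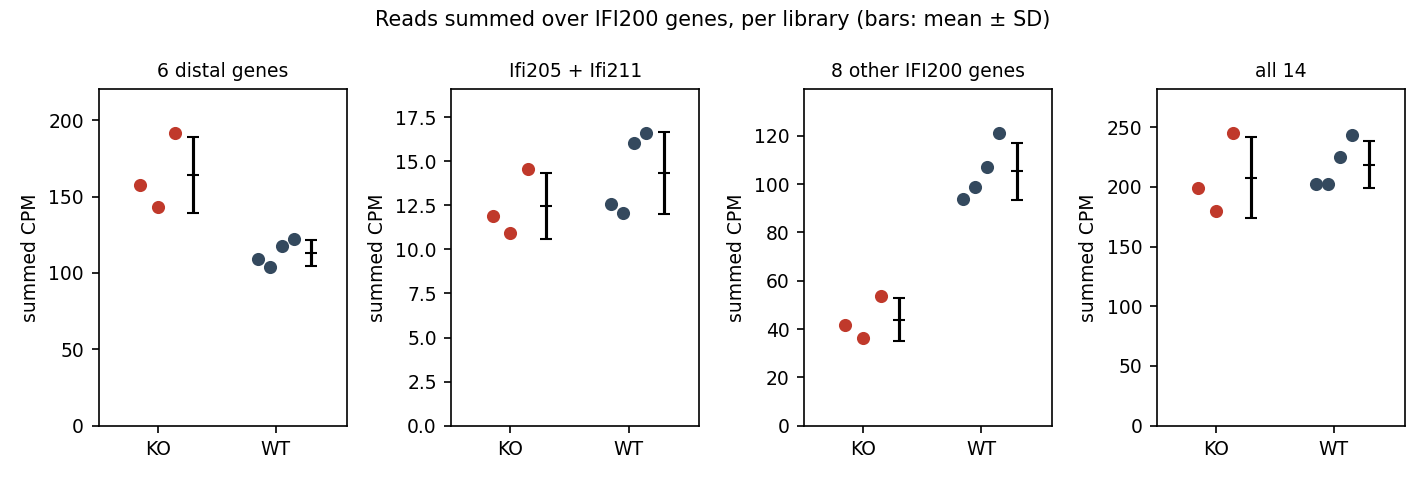
Summed CPM (vertical axes, starting at 0) per library over 4 sets of IFI200 genes, with 3 KO libraries left and 4 WT libraries right; points are libraries and bars are mean ± SD. The 6 distal genes lie higher in KO (143 to 192 against 104 to 122), the 8 others lower, and Ifi205 with Ifi211 and all 14 genes overlap. The 8 others and all 14 genes include the targeted gene Aim2.

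Of the 8 other IFI200 genes, all tested, edgeR called 0 higher and 3 lower, against 0.478% and 0.169% of all genes, with a median log2 fold change of -1.28. The 8 and the 3 include Aim2, the gene targeted in KO, so its lower level was set by the design. DESeq2 called 1 higher and 5 lower, against 259 higher and 146 lower of 14238 genes. The 3 were Aim2 (-2.76 ± 0.38, adjusted p = 0.0280), Ifi213 (-4.48 ± 0.31, adjusted p = 0.00264) and Ifi209 (-1.28 ± 0.21, adjusted p = 0.0484), all by edgeR quasi-likelihood, Benjamini-Hochberg. Ifi214 had a positive value that did not pass (1.30, adjusted p = 0.218, same test). Ifi213 and Ifi209 lie between Aim2 and the distal genes. The count was 1 without KO library 2 or WT library 2, 3 or 4, and 2 without one of the others. Ifi207, the nearest other family gene before Ifi204, had 224, 243 and 343 reads in the KO libraries, against 168, 282, 305 and 342 in the WT libraries, and these overlapped. Ifi203-ps, a pseudogene between Ifi204 and Mndal, had 6.9 to 12.4 reads in KO libraries and 13.0 to 25.0 in WT libraries, and 15.9% of the words of Ifi203 occur in it.

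**Figure D4:**
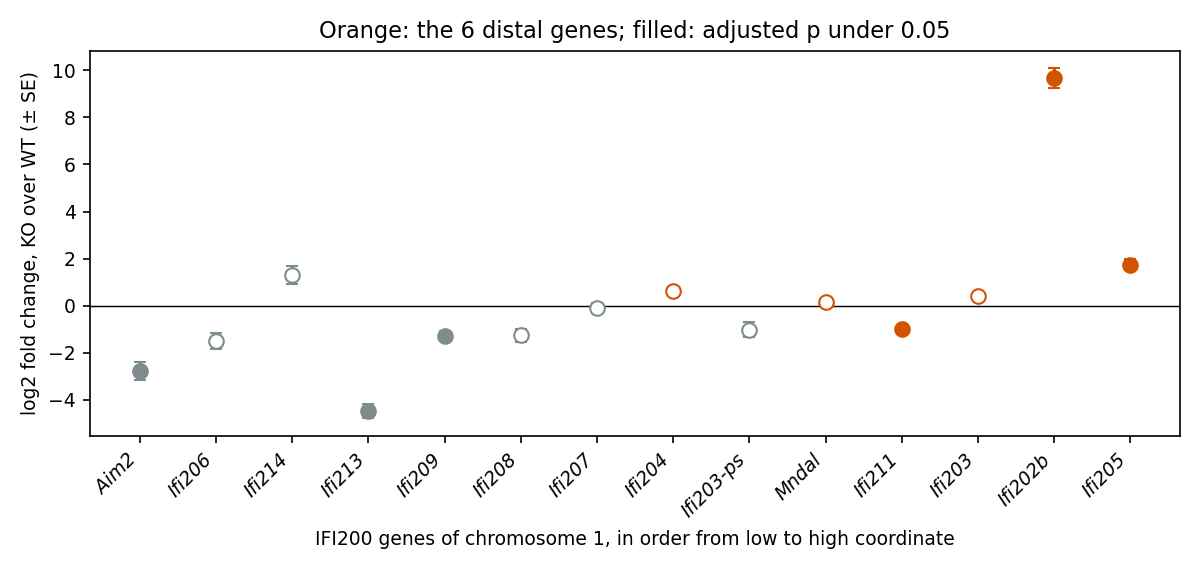
Log2 fold change of KO over WT with its SE (vertical axis) for the 14 IFI200 genes in the files, from low to high coordinate on chromosome 1 (horizontal axis, order only); orange points are the 6 distal genes and filled points passed an adjusted p of 0.05. Ifi202b stands at 9.66, Ifi205 at 1.73 and Ifi211 at -1.01, while filled points among the other genes are all below 0.

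The 4 nearest tested genes outside the family on each side were not called. On the Aim2 side these were Cadm3, Ackr1, Fcer1a and Dusp23, and the largest difference was -0.63 ± 0.19 for Dusp23 (adjusted p = 0.252, edgeR quasi-likelihood, Benjamini-Hochberg). Beyond Ifi205 they included Fh1 (0.23 ± 0.10, adjusted p = 0.448), Kmo (0.16 ± 0.12, adjusted p = 0.672) and Opn3 (-0.11 ± 0.28, adjusted p = 0.929), by the same test.

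The 6 genes have 25 annotated transcripts in the files, of which 15 passed the filter on low reads. Only Ifi202b-201 was called (log2 fold change 9.67 ± 0.63, adjusted p = 0.0120, edgeR quasi-likelihood, Benjamini-Hochberg), against 12 of 34507 transcripts in the whole table (0.0348%), of which 6 were higher (0.0174%) and 6 lower (0.0174%). At an unadjusted p under 0.05 there were 7 higher and 3 lower of the 15, against 6.51% of all transcripts. The KO and WT libraries did not overlap for 10 of the 15, against 9.18% of all. DESeq2 called 8 of the 15, against 482 of 34507 transcripts in the whole table. The call of Ifi202b-201 was lost without KO library 2 or 3 or WT library 2, 3 or 4 (adjusted p from 0.0558 to 0.0753, value from 9.32 to 9.78).

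Within Ifi203 the annotated transcripts went in opposite directions. Ifi203-205 had 309.8, 314 and 356 reads in the KO libraries, against 65.0, 103, 104 and 123 in the WT libraries. The groups were far apart, and the log2 fold change was 1.66 ± 0.19 (adjusted p = 0.0702, same test). Ifi203-202 had 45.1, 24.4 and 96.1 reads in the KO libraries, against 167, 316, 306 and 391 in the WT libraries. Here every KO library was lower, with a log2 fold change of -2.49 ± 0.49 (adjusted p = 0.274).

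Ifi203-203 had 596, 549.9 and 733 reads in the KO libraries, against 410.2, 287, 298 and 228 in the WT libraries, which did not overlap (0.95 ± 0.23, adjusted p = 0.400). Ifi203-201 was listed at 0 in the 3 KO libraries and in WT libraries 1 and 2, and had 95.1 and 72.8 reads in WT libraries 3 and 4. Ifi203-207, a retained-intron transcript, ranged over 30.98 to 47.3 reads in KO libraries and 23.6 to 55.0 in WT libraries. Ifi203-209 had 33.2, 44.1 and 102 reads in the KO libraries, against 12.1, 49.9, 0 and 0 in the WT libraries.

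Several exons set these transcripts apart. An exon of 144 bases (173933783 to 173933926) occurs in Ifi203-201, Ifi203-205 and Ifi203-209. Together these took 32.3 to 37.0% of the reads of Ifi203 in KO libraries and 11.3 to 23.1% in WT libraries. An extra coding exon of 1242 bases (173928275 to 173929516) is found only in Ifi203-205. A first exon runs on without splicing through 173942295 to 173942454 in Ifi203-201, Ifi203-202 and Ifi203-204. Ifi203-205 took 26.9 to 32.5% of the reads of Ifi203 in KO libraries and 9.53 to 14.2% in WT libraries. The transcripts with the unspliced first exon together took 2.53 to 7.61% in KO and 24.8 to 55.3% in WT. These groups of transcripts were formed after the values were seen and have no test of their own. Reads within the extra exon or across its splice junctions can tell Ifi203-205 from Ifi203-203. The junctions are shown 5′ to 3′ on the minus strand from the GENCODE M21 transcripts, with the downstream exon in capitals.
Ifi203-203, exon ending at 173935010 joined to 173927222: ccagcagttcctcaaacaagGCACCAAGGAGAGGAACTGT
Ifi203-205, exon ending at 173933783 joined to 173929516: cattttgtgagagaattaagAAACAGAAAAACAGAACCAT
Ifi203-205, exon ending at 173928275 joined to 173927222: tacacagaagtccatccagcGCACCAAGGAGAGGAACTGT
The junction of Ifi203-203 also occurs in Ifi203-202, Ifi203-204 and Ifi203-206, and both junctions of Ifi203-205 occur in that transcript only. Of the 31-base words of Ifi203-205, 19.9% were its own and 42.6% occurred in other genes, 35.8% in Ifi203-ps. Ifi203-201, Ifi203-202 and Ifi203-203 had 0.0% of their own, so their split rests on the combination of exons.

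**Figure D5:**
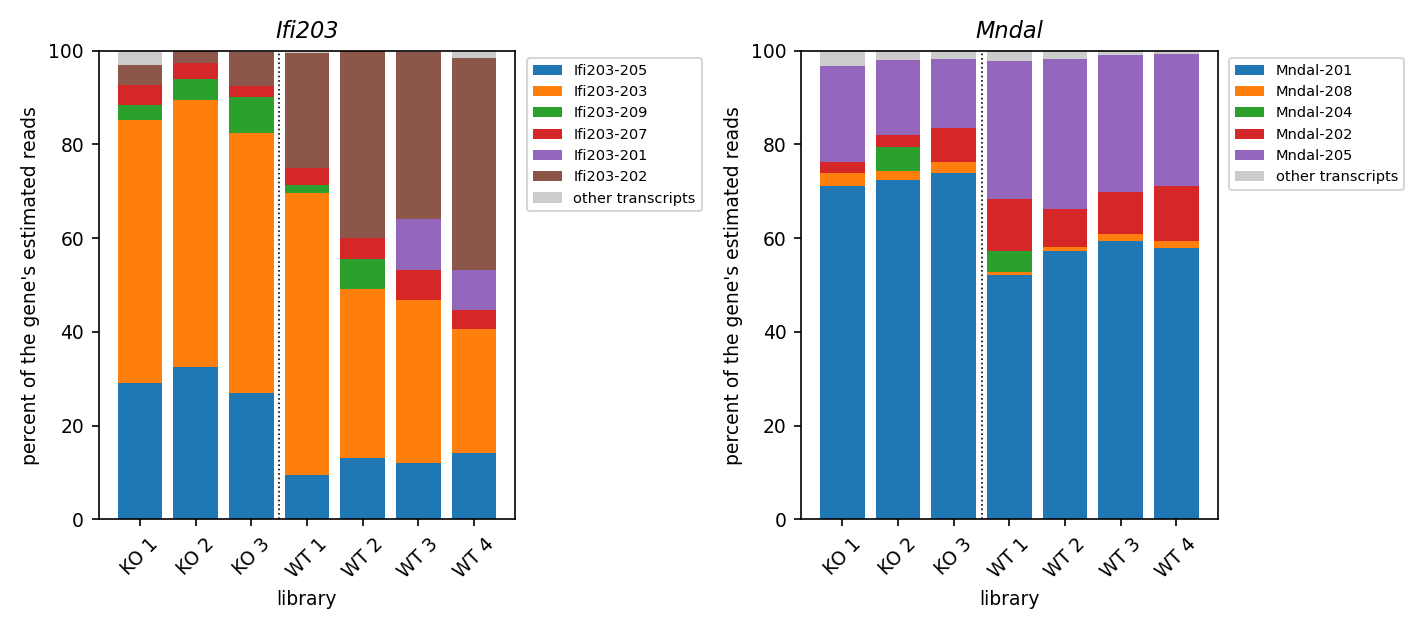
Percent of the estimated reads of Ifi203 (left) and Mndal (right) given to each annotated transcript (stacked bars, vertical axis 0 to 100) in KO libraries 1 to 3 and WT libraries 1 to 4, with a dotted line between the groups. Ifi203-202 takes 2.53 to 7.27% in KO and 24.5 to 45.3% in WT, and Mndal-201 takes 71.1 to 73.9% in KO and 52.1 to 59.4% in WT.

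No transcript of Mndal was called, and several had groups that did not overlap. Mndal-201 had 646, 617 and 870.3 reads in the KO libraries, against 421, 414, 502 and 522 in the WT libraries. Its groups did not overlap (0.54 ± 0.14, adjusted p = 0.492, edgeR quasi-likelihood, Benjamini-Hochberg), and it took 71.1 to 73.9% of the reads of Mndal in KO and 52.1 to 59.4% in WT. Its first exon, 37 bases at 173942455 to 173942491, lies at the first exon of Ifi203, far from the other exons of Mndal. None of its 31-base words were its own (0.0%).

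Mndal-205, a retained-intron transcript, had 185, 135 and 173 reads in the KO libraries, against 237, 231, 247 and 254 in the WT libraries. It was lower in each KO library (-0.64 ± 0.14, adjusted p = 0.324, same test). Mndal-202 had 22.3, 22.2 and 85.0 reads in the KO libraries, against 90.5, 57.6, 77.2 and 106 in the WT libraries, and KO library 3 lay within the WT range. Mndal-208 had 15.3 to 28.7 reads in KO libraries and 5.74 to 12.9 in WT libraries, and Mndal-204 was listed at 0 in all but KO library 2 (44.8) and WT library 1 (35.5).

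Whether the transcripts of 1 gene had unequal fold changes was tested with edgeR's diffSpliceDGE, which called 62 of 8363 genes (0.741%). The adjusted p was 0.0228 for Ifi203, 0.0498 for Mndal, 0.352 for Ifi204 and 0.814 for Ifi205. On simulated data this test made about as many false calls as true ones. Limma on transcript ratios, added for that reason, called 38 genes (0.454%) and none of the 4, with adjusted p of 0.170 for Ifi203 and 0.263 for Mndal. The diffSpliceDGE call of Mndal was lost with any 1 library left out (adjusted p from 0.128 to 1.0), and that of Ifi203 without any 1 KO library or without WT library 3 (0.0535 to 0.298).

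The remaining transcripts held most or little of their gene. Ifi204-201 had 604, 487 and 745 reads in the KO libraries, against 286, 358, 378 and 435 in the WT libraries, without overlap, and the retained-intron transcript Ifi204-202 had 3.77 to 16.3 in KO and 10.8 to 22.5 in WT. Ifi205-201, the coding transcript of Ifi205, had 112, 95.5 and 157 reads in the KO libraries, against 22.0, 32.1, 36.2 and 33.1 in the WT libraries. That difference was 1.90 ± 0.25 on the log2 scale (adjusted p = 0.0865, same test). Ifi205-202, which keeps an intron and has 79.1% of its 31-base words to itself, had 13.1, 9.46 and 19.7 reads in the KO libraries, against 2.03, 11.7, 8.40 and 8.21 in the WT libraries, which overlapped.

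Over the 7 libraries, the members with the most similar patterns were Ifi204 and Ifi203 (Pearson r = 0.979 on log2(CPM + 0.5)), and Ifi211 ran opposite to Ifi202b (r = -0.938). These r describe 7 libraries of 2 genotypes that share depth and scaling, so a difference between the genotypes alone gives a high r. Among 13197 genes of at least 1 CPM outside the family, those most like Ifi202b were Oas1g (r = 0.987), Slfn9 (0.985) and Usp18 (0.984). For Ifi205 they were Ighg2c (0.990), Tdrd7 (0.986) and Myd88 (0.985). For Ifi211 they were Siglecg (0.988), Ltb (0.982) and Pex6 (0.982). Ifi204 was most like Bace2 (0.994), Slfn5 (0.994) and Fcgr4 (0.985), Ifi203 most like Ighv1-4 (0.990), Fcrl5 (0.985) and Ifi47 (0.978), and Mndal most like Id1 (0.983), Bzw1 (0.945) and Ptx3 (0.938).

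Genes of the pathways around the family gave a mixed picture. Of 13 interferon signalling genes, 4 rose, 0 fell and all 13 had a positive log2 fold change, with a median of 0.21, against 0.478% higher, 0.169% lower and a median of -0.01 over all genes. DESeq2 called 4 of the 13, against 405 of 14238 genes. The 4 that rose by edgeR quasi-likelihood, Benjamini-Hochberg, included Usp18, a brake on interferon receptor signalling (1.30, adjusted p = 0.00561). Stat2 (0.45, adjusted p = 0.0248) and Irf9 (0.63, adjusted p = 0.0452) were also among them. Of 15 tested genes of cytosolic DNA sensing, where DESeq2 called 4, 2 rose, Zbp1 and Irf7, by the same test. Zbp1 had 22.3 ± 3.64 CPM in KO libraries and 7.39 ± 1.39 CPM in WT libraries (adjusted p = 0.0102). Irf7 had 147 ± 13.1 CPM in KO libraries and 63.6 ± 15.6 CPM in WT libraries (adjusted p = 0.0327). With a library left out, the count of interferon signalling genes was 3 without KO library 3 and 1 or 2 otherwise, and that of DNA sensing genes was 1 without any 1 KO library or without WT library 2 or 3. Tmem173, which encodes STING, was not called (0.14, adjusted p = 0.667).

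Of 8 inflammasome partners, edgeR called 0, with 4 at an unadjusted p under 0.05 (11.5% of all genes were). DESeq2 called 2 of the 8, against 405 of 14238 genes. The partners with the smallest p by edgeR were Casp4 (0.64, adjusted p = 0.0812) and Il1b (0.77, adjusted p = 0.107). Of 15 tested nuclear partners of IFI200 proteins, edgeR and DESeq2 called 0, with 2 at an unadjusted p under 0.05, a share near the 11.5% of all genes. These were Fos (0.66, adjusted p = 0.319) and Runx2 (0.26, adjusted p = 0.382).

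In bulk marrow, fewer cells of a type and less RNA per cell cannot be told apart, and the marker genes of several cell types moved with the groups. The 10 monocyte and macrophage markers summed to 963 to 1119 CPM in KO and 554 to 844 CPM in WT, with 9 of 10 positive, 0 called by edgeR, 4 at an unadjusted p under 0.05 (11.5% of all genes) and none at 0 reads. The 8 B lineage markers summed to 151 to 250 CPM in KO and 331 to 521 CPM in WT, with 8 of 8 negative, 0 called and 7 at an unadjusted p under 0.05. The 5 plasma cell markers summed to 680 to 848 CPM in KO and 422 to 644 CPM in WT, with 0 called and 4 at an unadjusted p under 0.05. The 6 T cell markers (44.6 to 58.2 CPM in KO and 59.9 to 79.9 CPM in WT) and the 4 endothelial markers (156 to 164 CPM in KO and 128 to 140 CPM in WT) were also apart, with 0 called. The sums of the other marker lists overlapped, muscle markers ranged over 48.4 to 4818 CPM in KO and 851 to 1733 CPM in WT, and the dendritic cell marker Cd209a was the one marker called, lower in KO. Their part in the values of Ifi204, Ifi203, Ifi205 and Ifi211 was not tested.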

How the data were processed

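Bone marrow RNA of 3 Aim2 KO and 4 WT libraries was isolated with a column kit and made into strand-specific mRNA libraries for the DNBSEQ platform, per the labels' protocols. Reads were checked with FastQC 0.11.9 and quantified with Salmon 1.7.0, and GRCm38.p6 and DESeq2 are also named, per the submitters' processing notes. The Salmon options, the transcript release and any use made of DESeq2 are not given in the sources used here. As files, the authors deposited, for 116546 transcripts per library, estimated counts without further normalization and TPM values, which correct for effective transcript length and add to a fixed total. Transcripts were those of a C57BL/6J annotation, so sequence that differs from it was not modelled.

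Transcripts were joined by identifier to GENCODE M21, and 569 without a gene there (at most 0.0662% of the reads of a library) were left out. Estimated counts were summed per gene, or kept per transcript, and rounded to whole numbers. Low rows were removed with filterByExpr, TMM factors were 0.918 to 1.06, and genotype was tested with edgeR 4.0.16 (R 4.3.3) by the quasi-likelihood test with Benjamini-Hochberg adjustment over all rows. An adjusted p under 0.05 was taken as called. SE is the absolute log2 fold change over the square root of F. Steps were tested on simulated data. Libraries of the same genotype differed by more than counting noise in every pair (chi-square divided by its degrees of freedom, 9.61 to 59.4).

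The members, gene lists and tests were chosen with earlier results of these data known. Named genes were the 6 members, their transcripts with a mean of at least 10 estimated reads, the other IFI200 genes, the 4 nearest tested genes on each side, the 2 members of each pathway list with the smallest p, and for each member the 3 genes with the highest correlation. Irf9 and Tmem173 were named after their values were seen. The values of some genes are not reported here. Lists were described by counts and medians only. Markers of 16 cell types or tissues were summed per library. Shared sequence was counted as 31-base words over the GENCODE M21 transcripts. Promoter and motif windows are RefSeq entries of 250 bases before a start.

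Alternatives were RLE scaling, TMM without haemoglobin, immunoglobulin and mitochondrially encoded genes, other filters, coding transcripts only, an effective length offset, DESeq2 1.42.0, limma 3.58.1 on log2(TPM + 0.1) and log2(TPM + 1), the sample number as a block, leaving out each library, and, added after the simulated data, limma on transcript ratios.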

Additional observations from a re-analysis of the deposited data

How the results depend on the processing

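Ifi202b kept its direction and its call in every gene-level alternative, with log2 fold changes of 4.26 to 12.04. The count of called distal genes, 3 in the report, was 5 with DESeq2, 1 with limma on log2(TPM + 1) without filter, 1 with the replicate block and 1 to 2 with a library left out. DESeq2 also called Ifi204 (0.62) and Ifi203 (0.40). Ifi211 was not called with the length offset (-1.0), limma on log2(TPM + 0.1) (-0.82), on log2(TPM + 1) with or without filter (-0.71) or the replicate block (-0.91), and was -1.11 to -0.93 with a library left out. Ifi205 was not called with limma on log2(TPM + 1) without filter (1.35) or the replicate block (1.76), and was 1.52 to 1.87 with a library left out.

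Over all genes, 92 were called in the main test, 405 with DESeq2, 55 with the length offset, 49 with limma on log2(TPM + 0.1), 50 on log2(TPM + 1), 21 on log2(TPM + 1) without filter, 21 with the replicate block and 17 to 65 with a library left out. Over transcripts, 12 were called, 482 with DESeq2, 0 with the replicate block and 0 to 10 with a library left out. Of the member transcripts 1 was called, 8 with DESeq2, 0 with the replicate block and 0 to 1 with a library left out. The tests of transcript shares called 62 genes, 38 with limma ratios and 69 to 147 with a library left out. Apart from leaving libraries out, the share call of Ifi203 was kept in 2 alternatives and lost in 2 (adjusted p 0.170 by limma ratios and 0.320 by diffSpliceDGE). That of Mndal was kept in 1 and lost in 3 (adjusted p from 0.0505 by diffSpliceDGE to 0.263 by limma ratios). Ifi203-207, not called, lay between -0.27 and 0.15 with a library left out and was positive without KO library 3 (0.04) or WT library 3 (0.15). With the replicate block, 1 of the 8 other IFI200 genes and 1 of the 13 interferon signalling genes were called. The cause of these differences was not tested.

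Same-numbered libraries did not deviate together (correlations 0.0931, -0.0235 and -0.246), so the sample numbers are not taken as pairs. Ifi205 and Ifi211, at 24.1 to 306 reads, are limited by depth and by shared sequence.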
